A study of Mus musculus with 24 samples.

Results

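The 10 genes described here encode cytosolic and mitochondrial heat shock proteins: Hspa8, Hspa1a, Hspa1b, Hsp90aa1, Hsp90ab1, Hsph1, Dnajb1, Hspb1, Hspd1 and Hspe1. They were chosen by symbol among the 15160 genes of the count table, and all 10 were among the 13336 genes with enough counts to be tested. Liver RNA of 24 male mice was sequenced as QuantSeq 3′ libraries, which give about 1 read per transcript from its 3′ end, with 1 library per mouse. All mice carried floxed Nfe2l2 alleles (NRF2fl/fl), were labelled as 5 months old, began their diet at 8 weeks of age, ate it for 8 weeks, then had energy expenditure measured and a period of recovery, for which the diet is not stated, and were fasted for 4 h before death. WT mice had no Cre, whereas in NRF2 KO mice (NRF2fl/(alb)) Cre under the albumin promoter, which is active in hepatocytes, excises exon 5 sequence of Nfe2l2. Liver cells without active Cre keep the gene, and which cells these are was not measured here. The Con diet held 0.86% methionine and the methionine-restricted (MR) diet 0.17%. The mice WT_CON_7604 and WT_MR_7612, which the study set aside, were left out, which gave 5 WT mice and 6 NRF2 KO mice on each diet. The comparisons asked how the chaperone genes responded to MR and whether the response or the basal level depended on hepatic NRF2.

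Heat shock proteins are chaperones that bind unfolded or partly folded proteins and help them to fold, to assemble or to be degraded. HSP70 proteins bind short hydrophobic stretches in cycles of ATP hydrolysis that J-domain proteins start and that nucleotide exchange factors end, HSP90 proteins act later on clients such as kinases and steroid receptors, and small heat shock proteins hold unfolded proteins without ATP. In mitochondria, HSP60 and its lid HSP10 form a folding chamber. When unfolded proteins accumulate in the cytosol, the transcription factor HSF1 forms trimers and binds heat shock elements, which are inverted repeats of the 5-base unit nGAAn, in the promoters of many of these genes.

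By GENCODE M21 (GRCm38), Hspa8 (ENSMUSG00000015656) lies on the plus strand of chromosome 9 from 40800984 to 40810087. Hspa1b (ENSMUSG00000090877, 34956436 to 34959238) and Hspa1a (ENSMUSG00000091971, 34969190 to 34972156) are single-exon genes on the minus strand of chromosome 17, 9951 bp apart, and Hsp90ab1 (ENSMUSG00000023944, 45567775 to 45573271) lies on the same strand of that chromosome. Hsp90aa1 (ENSMUSG00000021270) is on chromosome 12, minus strand, from 110690605 to 110702728, and Dnajb1 (ENSMUSG00000005483) on the plus strand of chromosome 8 from 83608193 to 83612653. Hsph1 (ENSMUSG00000029657, minus strand, 149614287 to 149636376) and Hspb1 (ENSMUSG00000004951, plus strand, 135887919 to 135889563) are on chromosome 5. Hspd1 (ENSMUSG00000025980, minus strand, 55077835 to 55088243) and Hspe1 (ENSMUSG00000073676, plus strand, 55088132 to 55091307) are on chromosome 1.

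Promoter windows from 250 bases before to 50 bases after the start site (RefSeq, GRCm38.p6) were matched for 7 of the 10 genes, in 10 windows. Hspa8, Hsp90aa1 and Hsp90ab1 had no entry. The windows were searched on both strands for the 2 arrangements of a pair of heat shock units, GAANNTTC and TTCNNGAA, which can overlap each other, and for 3 units in turn. At least 1 of the 2 arrangements was found in 15.1% of the 32851 promoter windows in the table, and 3 units in turn in 0.603%. The following 4 windows are shown because they carry the arrangements found near the genes described below, with the matches in capitals.

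Hspe1 (chr1:55087898-55088197, plus strand): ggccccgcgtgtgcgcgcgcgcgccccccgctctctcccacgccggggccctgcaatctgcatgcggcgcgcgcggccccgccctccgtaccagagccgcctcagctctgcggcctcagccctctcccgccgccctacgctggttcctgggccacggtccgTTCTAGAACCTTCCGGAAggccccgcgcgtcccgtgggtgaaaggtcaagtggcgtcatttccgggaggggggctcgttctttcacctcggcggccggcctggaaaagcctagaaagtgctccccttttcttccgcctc
Hsph1 (chr5:149636287-149636586, minus strand): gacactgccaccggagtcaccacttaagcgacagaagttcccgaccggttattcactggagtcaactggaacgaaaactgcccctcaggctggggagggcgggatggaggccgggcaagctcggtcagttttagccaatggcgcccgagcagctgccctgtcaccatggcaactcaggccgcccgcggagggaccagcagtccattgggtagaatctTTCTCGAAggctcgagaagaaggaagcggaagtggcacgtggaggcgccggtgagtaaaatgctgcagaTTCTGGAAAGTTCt
Hspb1 (chr5:135887669-135887968, plus strand): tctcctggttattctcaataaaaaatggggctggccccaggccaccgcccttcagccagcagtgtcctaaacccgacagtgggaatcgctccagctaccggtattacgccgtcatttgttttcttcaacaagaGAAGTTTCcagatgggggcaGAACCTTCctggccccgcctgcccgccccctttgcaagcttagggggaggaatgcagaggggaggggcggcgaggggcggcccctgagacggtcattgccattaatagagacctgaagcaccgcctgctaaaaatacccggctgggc
Hspa1b (chr17:34959189-34959488, minus strand): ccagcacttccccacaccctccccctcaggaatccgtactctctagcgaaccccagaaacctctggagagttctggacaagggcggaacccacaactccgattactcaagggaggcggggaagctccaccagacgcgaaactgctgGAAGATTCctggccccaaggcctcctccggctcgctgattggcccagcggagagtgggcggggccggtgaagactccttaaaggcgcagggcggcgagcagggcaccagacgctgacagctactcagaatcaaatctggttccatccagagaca

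Hspd1 and Hspe1, which encode HSP60 and HSP10, lie head to head, and their annotated bodies overlap by 112 bp. The Hspe1 window and one of the Hspd1 windows shared 285 bases, and the capitals in the Hspe1 window mark 3 overlapping matches from 89 to 72 bases before its start site, in which both ways of reading 3 units in turn were found. Hsph1 had 3 matches, among them 3 units in turn from 36 to 48 bases after the start site. Hspb1 had 2 matches and Hspa1b had 1, from 104 to 97 bases before the start site. The Hspa1a window held the same match at the same distance and was 98.7% identical to that of Hspa1b, with 4 substitutions, T44C, C47T, G249T and T276C, given with the Hspa1b base first and counted from 1 at the 5′ end of the window. Neither Dnajb1 window held either arrangement. The motif TGACNNNGC, the core of the antioxidant response element to which NRF2 binds, was present in 12.4% of all windows. It was found 2 times in each Hsph1 window and 1 time in 1 Dnajb1 window, and in no window of the other 5 genes. The motif TGATGNAA, an element bound by ATF4, was present in 3.97% of all windows and in none of the 10. These matches are descriptions of letters and were not measured as binding sites.

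In the 22 mice the total count ran from 6197291 to 22068338 per mouse, and levels are given as CPM, which relate each count to the size of its library, after TMM scaling, which sets the typical gene equal between libraries. Since a 3′ library gives reads per transcript end and not per length, CPM was also used to order genes by level. Groups were compared with edgeR's quasi-likelihood test over all 13336 genes, with 0.05 as the limit on the Benjamini-Hochberg adjusted p of a called gene. Scaling by library size alone moved the median log2 fold change of all genes with MR in WT from -0.01 to 0.09, and in NRF2 KO from 0 to 0.15, and the share of called genes that were higher from 50.0% to 73.2% and from 49.6% to 86.1%. Exon 5 is the last exon of Nfe2l2, and which part of it the 3′ reads cover was not determined, so they do not check the deletion: Nfe2l2 was at 106 to 125 CPM in 4 WT Con mice, at 94.0 to 107 CPM in WT MR, at 228 to 339 CPM in NRF2 KO Con and at 202 to 249 CPM in NRF2 KO MR. For the library labelled WT_CON_7607 the value was 324 CPM, far from the other WT Con mice and as high as in NRF2 KO Con. Other values of this library were mixed. It was the highest of WT Con for Hspa1a (1.66 CPM), Hspa1b (9.46 CPM) and Dnajb1 (19.4 CPM). These values lay inside the NRF2 KO Con ranges of 0.352 to 1.91, 7.54 to 16.3 and 17.0 to 26.4 CPM. The summed level of 12 NRF2 target genes was 1223 to 3523 CPM in WT Con, this library included, and 928.5 to 1090 CPM in NRF2 KO Con. Its clock score, described below, was -2.30, beside 0.38 to 1.35 in NRF2 KO Con. Whether its label is right was not tested. The log2 fold changes of the 10 genes that rest on WT Con are therefore also given without it. All 6 hepatocyte markers examined had 794 or more counts in every mouse. In bulk liver, fewer cells of a type and less RNA per cell cannot be told apart.

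The most abundant of the genes over the 22 mice was Hsp90ab1, the constitutive cytosolic HSP90, at a mean of 1396 CPM. Hspa8, the constitutive cytosolic HSP70 (HSC70), followed at 291 CPM. Hspe1 at 179 CPM and Hspd1 at 171 CPM did not separate, with Hspe1 above Hspd1 in 15 of 22 mice. Hsp90aa1, the stress-inducible HSP90, was at 133 CPM and below Hspd1 in 20 of 22 mice. Hsph1, the HSP110 nucleotide exchange factor, was at 24.8 CPM and Dnajb1, the J-domain partner of inducible HSP70, at 21.2 CPM, and Hsph1 was the higher in 16 of 22 mice. The stress-inducible HSP70 genes Hspa1b and Hspa1a were at 10.6 and 0.689 CPM, with the small heat shock protein gene Hspb1 (8.73 CPM) between them, and Hspb1 was below Hspa1b in 15 of 22 mice. The order was therefore led by constitutive genes. Of the 9 pairs of neighbours, 5 kept their order in all 22 mice, and Hspe1 with Hspd1, Hsph1 with Dnajb1 and Hspa1b with Hspb1 changed places in 6 or 7 mice. The raw counts behind Hspa1a were 2 to 28 per mouse, so it was the least precise of the 10.

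**Figure D1:**
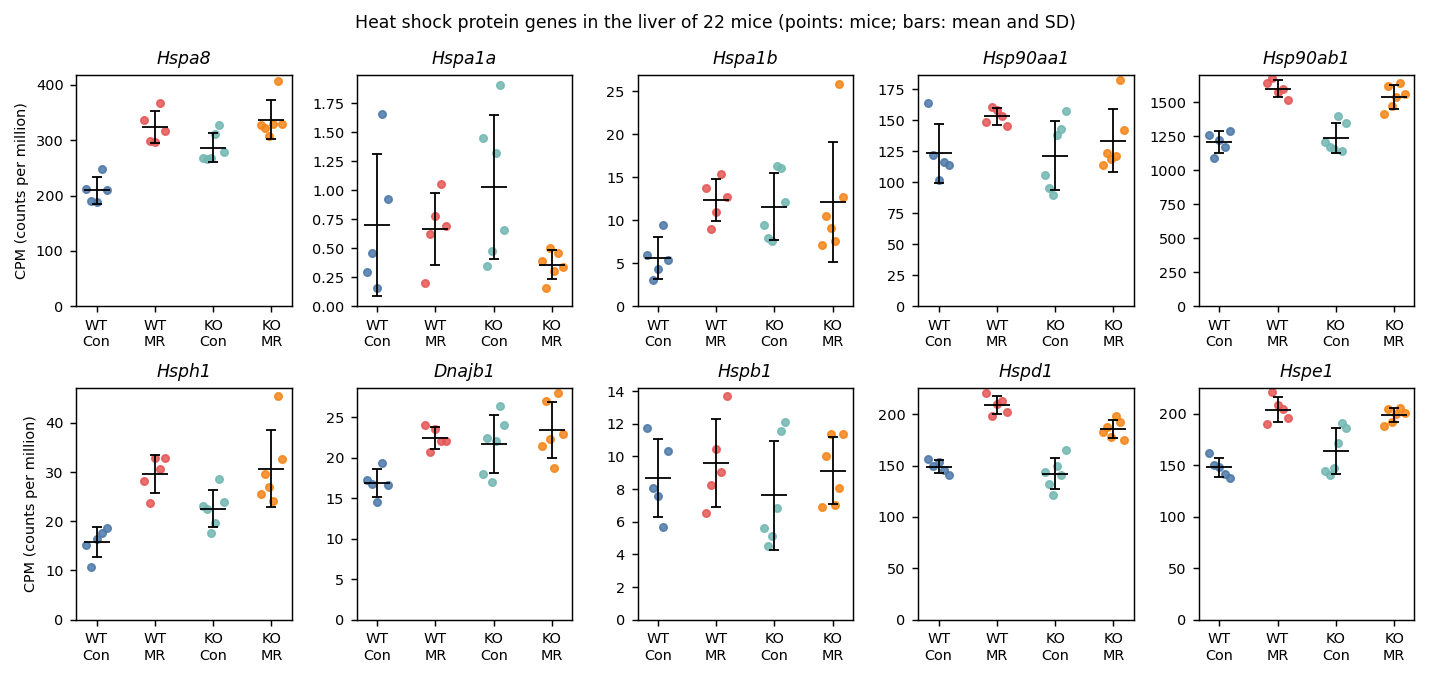
CPM of the 10 heat shock protein genes (y axis, linear, from 0) in WT and NRF2 KO liver on the Con and MR diets (x axis), with each point a mouse and black bars the mean and SD (n = 5, 5, 6 and 6). The WT MR mice lie above every WT Con mouse for Hspa8, Hsp90ab1, Hsph1, Dnajb1, Hspd1 and Hspe1, and the NRF2 KO MR mouse at 407 CPM of Hspa8 is also the highest for Hspa1b.

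In WT liver, MR raised 7 of the 10 genes and lowered 0, where 6.91% of all genes tested were called higher and as many lower. There were 6 members with no overlap between WT MR and WT Con mice, against 5.32% of all genes with every WT MR mouse higher. The median log2 fold change of the 10 genes was 0.44, beside -0.01 over all genes tested. At an unadjusted p under 0.05 there were also 7 members, where 28.3% of all genes lay under it, and DESeq2 and limma also called 7 higher and 0 lower. Together the 10 genes made up 1884 ± 100 CPM (SD, n = 5) in WT Con and 2566 ± 69.6 CPM (n = 5) in WT MR.

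Hspa8 rose from 188, 189.7, 210.5, 211 and 247 CPM in the WT Con mice to 297, 299, 316, 337 and 367 CPM in the WT MR mice. The groups did not overlap, and the WT Con value of 247 CPM was that of the library labelled WT_CON_7607. The log2 fold change was 0.63 ± 0.09 (SE, adjusted p = 1e-04, edgeR's quasi-likelihood test), and without that library it was 0.70. Hspa1b, the inducible HSP70, rose from 3.04, 4.33, 5.34, 6.00 and 9.46 CPM to 8.99, 10.98, 12.7, 13.7 and 15.4 CPM. Its groups overlapped only through the library labelled WT_CON_7607, the highest of WT Con. The log2 fold change was 1.12 ± 0.36 (adjusted p = 0.042, edgeR's test), 1.38 without that library, and it was called in 14 of 22 fits made without 1 mouse each. It was not called without WT_CON_7602, WT_CON_7603, WT_CON_7605, WT_CON_7608, WT_MR_7609, WT_MR_7613, WT_MR_7615 or WT_MR_7616, where the value was 0.98 to 1.16. With the counts of Hspa1a and Hspa1b summed, the adjusted p was 0.063 (edgeR's test, an alternative chosen after seeing the data), within a range of 0.0048 to 0.19 over all alternatives. Hspa1a had 0.16 to 1.66 CPM in WT Con and 0.20 to 1.06 CPM in WT MR, with a log2 fold change of -0.15 ± 0.53 (adjusted p = 0.89, edgeR's test) that became 0.38 without the library labelled WT_CON_7607. No 50-base word in the last 500 bases of either gene's transcript occurred in another gene, so reads from these 3′ ends can be told apart although the promoters are nearly identical.

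The partners of HSP70 also rose. Hsph1 was at 10.7, 15.2, 16.4, 17.6 and 18.6 CPM in WT Con and at 23.6, 28.3, 30.6, 32.8 and 32.9 CPM in WT MR, without overlap, and its log2 fold change of 0.90 ± 0.17 (adjusted p = 0.00092, edgeR's test) was called in all 22 fits without 1 mouse and was 0.95 without the library labelled WT_CON_7607. Dnajb1 was at 14.5, 16.6, 16.7, 17.3 and 19.4 CPM in WT Con and at 20.7, 22, 22.1, 23.5 and 24.03 CPM in WT MR. These groups did not overlap either, and the log2 fold change was 0.41 ± 0.12 (adjusted p = 0.020, edgeR's test). Over all 24 mice Dnajb1 was at 0.30 and no longer called (adjusted p = 0.080, edgeR's test, range over all alternatives 0.011 to 0.095), and it was not called without WT_CON_7605 (0.36). Without the library labelled WT_CON_7607 it was at 0.47.

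Of the HSP90 pair, the constitutive gene rose. Hsp90ab1 went from 1093, 1168, 1220, 1263 and 1292 CPM to 1517, 1577, 1598, 1639 and 1675 CPM, a log2 fold change of 0.41 ± 0.08 (adjusted p = 0.0012, edgeR's test) with no overlap. Hsp90aa1 ran from 102 to 164 CPM in WT Con and from 145 to 161 CPM in WT MR, and its log2 fold change of 0.31 ± 0.15 was not called (adjusted p = 0.18, edgeR's test). In the fit that left out the library labelled WT_CON_7607, Hsp90ab1 was at 0.40 and Hsp90aa1 at 0.29. The ratio of Hsp90aa1 to Hsp90ab1 was 0.103 ± 0.0188 (SD, n = 5) in WT Con and 0.0957 ± 0.00346 (n = 5) in WT MR mice, so a different response of the 2 genes was not shown (two-sided exact permutation test, p = 0.52, adjusted p = 0.64 over 16 ratio tests).

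Both subunits of the mitochondrial folding chamber rose. Hspd1 (HSP60) went from 140.4, 145.6, 149.6, 153 and 156 CPM to 198, 203, 209.8, 213 and 221 CPM, a log2 fold change of 0.49 ± 0.07 (adjusted p = 1e-04, edgeR's test). Hspe1 (HSP10) went from 138, 141, 148, 149.9 and 162 CPM to 189.8, 196, 205, 209 and 221 CPM, a log2 fold change of 0.46 ± 0.08 (adjusted p = 0.00068, edgeR's test). Every WT MR mouse lay above every WT Con mouse for both genes. The ratio of Hspd1 to Hspe1, whose products work together, was 1.01 ± 0.0292 in WT Con and 1.03 ± 0.0948 in WT MR (n = 5 and 5, two-sided exact permutation test, p = 0.68, adjusted p = 0.73). Hspb1 was at 5.71 to 11.8 CPM in WT Con and 6.51 to 13.7 CPM in WT MR, with a log2 fold change of 0.13 ± 0.27 (adjusted p = 0.80, edgeR's test). In the fit that left out the library labelled WT_CON_7607, Hspd1 was at 0.48, Hspe1 at 0.45 and Hspb1 at 0.02.

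In NRF2 KO liver, MR raised 4 of the 10 genes, where 6.23% of all genes were called higher, and lowered 1, where 6.34% were called lower and 12.6% either way. The 4 were Hsp90ab1, Hsph1, Hspd1 and Hspe1, and the 1 was Hspa1a. Of these, 2 separated the diets with no overlap, with every MR mouse higher, as did 2.62% of all genes, and 0 had every MR mouse lower, as did 2.83%. Over the 10 genes the median log2 fold change was 0.26, beside 0 over all genes tested. Their summed level in NRF2 KO was 2017 ± 173 CPM (SD, n = 6) on Con and 2472 ± 160 CPM (n = 6) on MR.

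Hspd1 ran from 122 through a median of 142 to 165 CPM in NRF2 KO Con and from 175 through 185 to 198 CPM in NRF2 KO MR. The groups did not overlap, and the log2 fold change was 0.39 ± 0.07 (adjusted p = 0.00055, edgeR's test). Hsp90ab1 ran from 1139 through 1192 to 1400 CPM on Con and from 1412 through 1550 to 1643 CPM on MR, a log2 fold change of 0.32 ± 0.07 (adjusted p = 0.0049, edgeR's test), again without overlap. Hspe1 ran from 141 through 159 to 191 CPM and from 188.5 through 201 to 205 CPM. Its groups overlapped through the highest Con mouse, and the log2 fold change was 0.28 ± 0.08 (adjusted p = 0.016, edgeR's test).

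Hsph1 ran from 17.7 through 22.7 to 28.6 CPM on Con and from 24.1 through 28.3 to 45.4 CPM on MR, a log2 fold change of 0.45 ± 0.15 (adjusted p = 0.046, edgeR's test). This call held in 10 of the 22 fits without 1 mouse. Without KO_MR_7631, the mouse with the highest level, the value was 0.30 (adjusted p = 0.13, edgeR's test, range over all alternatives 0.013 to 0.13), and without WT_MR_7609, WT_MR_7613, WT_MR_7615, WT_MR_7616, KO_CON_7617, KO_CON_7618, KO_CON_7620, KO_CON_7621, KO_MR_7627, KO_MR_7628 or KO_MR_7632 it was 0.39 to 0.49 and also not called. Hspa1a ran from 0.352 through 0.990 to 1.91 CPM on Con and from 0.154 through 0.366 to 0.504 CPM on MR. Its groups overlapped, the log2 fold change was -1.44 ± 0.48 (adjusted p = 0.048, edgeR's test), and the call held in 7 of the 22 fits without 1 mouse, those without WT_CON_7602, WT_CON_7605, WT_CON_7607, WT_MR_7609, KO_CON_7618, KO_CON_7620 or KO_CON_7623. The gene Gm20481 covers 2225 bp of Hspa1a on the opposite strand, which is part of its only exon, and whether the counting used the strand was not given in the sources used here.

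Hspa8 ran from 266 through 273 to 328 CPM on Con and from 307.5 through 328 to 407 CPM on MR in NRF2 KO, with a log2 fold change of 0.24 ± 0.08 that was not called (adjusted p = 0.066, edgeR's test). It was called without the library labelled WT_CON_7607 (0.24) and without KO_CON_7622 (0.28), by DESeq2 (0.24) and with library size alone (0.39), and its adjusted p ran from 0.014 to 0.18 over all alternatives. Hspa1b ran from 7.54 through 10.8 to 16.3 CPM and from 7.12 through 9.78 to 25.8 CPM. Its log2 fold change was 0.09 ± 0.31 (adjusted p = 0.89, edgeR's test) and became -0.30 without KO_MR_7631, the mouse with the highest level. Dnajb1 was at 0.12 ± 0.11, Hsp90aa1 at 0.14 ± 0.14 and Hspb1 at 0.28 ± 0.25 on the log2 scale, and none of these was called (adjusted p = 0.52, 0.57 and 0.51, edgeR's test). In the fits without 1 mouse Dnajb1 ran from 0.05 (without KO_CON_7620) to 0.18 (without KO_CON_7622), Hsp90aa1 from 0.03 (without KO_MR_7631) to 0.23 (without KO_CON_7623), and Hspb1 from 0.17 (without KO_CON_7618) to 0.46 (without KO_CON_7623).

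**Figure D2:**
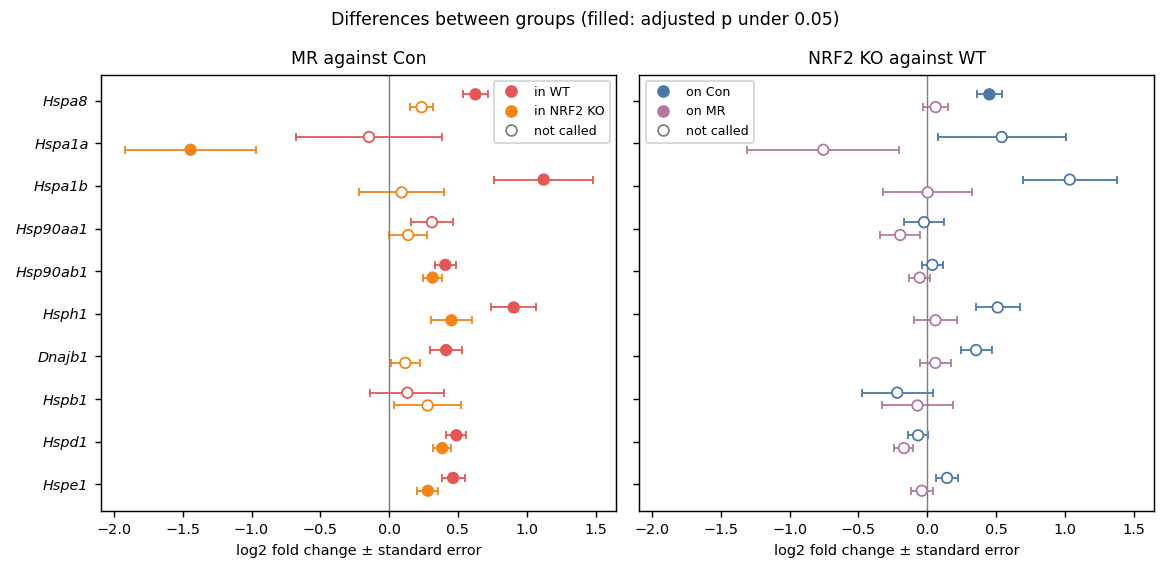
Log2 fold changes (x axis) with standard errors of the 10 genes (y axis) for MR against Con in each genotype (left) and for NRF2 KO against WT on each diet (right), with filled points at an adjusted p under 0.05 in edgeR's test. MR points are filled for 7 genes in WT and 5 in NRF2 KO, and on the right only Hspa8 on Con is filled.

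Averaged over both genotypes, MR raised 6 of the 10 genes, where 13.3% of all genes were called higher and 27.4% either way. Called higher in each genotype were 4 of the 10, as were 3.17% of all genes. Those raised on average were Hspa8, Hsp90ab1, Hsph1, Dnajb1, Hspd1 and Hspe1, and the largest of these values was 0.68 ± 0.11 for Hsph1 (adjusted p = 1e-04, edgeR's test). The averaged values without the library labelled WT_CON_7607 were 0.47 for Hspa8, 0.36 for Hsp90ab1, 0.70 for Hsph1, 0.29 for Dnajb1, 0.43 for Hspd1 and 0.37 for Hspe1. Hspa1b, at 0.61 and not called (adjusted p = 0.062, edgeR's test), was called without that library (0.73) and without KO_CON_7621 (0.67), KO_CON_7622, KO_MR_7625 or KO_MR_7629 (0.66 each). Hsp90aa1, at 0.22, was called without WT_CON_7602 (0.29) or KO_CON_7623 (0.27), and Hspa1a, at -0.79, without WT_CON_7605 (-0.93).

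Whether the effect of MR differed between genotypes was tested by the interaction, in which 0 of the 10 genes were called by edgeR, DESeq2 or limma, while 0.045% of all genes were by edgeR, 0.0225% higher and 0.0225% lower. At an unadjusted p under 0.05 there were 2 members, Hspa8 with an interaction of -0.39 ± 0.13 on the log2 scale (adjusted p = 0.41, edgeR's test) and Hspa1b with -1.03 ± 0.47 (adjusted p = 0.63, edgeR's test), where 7.56% of all genes lay under that p. Without the library labelled WT_CON_7607 these were -0.46 and -1.29. The interaction was negative for 9 of the 10 genes. These signs are not independent, since the genes share their mice and some varied together within groups, and the genes were not tested as a set. Thus a smaller effect of MR in NRF2 KO was not shown for any single gene, although 7 were called in WT and 4 higher in NRF2 KO.

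NRF2 KO on Con raised 1 of the 10 genes, Hspa8, where 0.802% of all genes were called higher, and lowered 0, where 1.27% were called lower and 2.07% either way. At an unadjusted p under 0.05 there were 4 members, where 14.4% of all genes lay under it. Every NRF2 KO Con mouse lay above every WT Con mouse for Hspa8, as for 0.945% of all genes, with 209 ± 23.9 CPM (SD, n = 5) in WT Con and 286 ± 26.5 CPM (n = 6) in NRF2 KO Con. The log2 fold change was 0.45 ± 0.09 (adjusted p = 0.0061, edgeR's test), and without the library labelled WT_CON_7607 it was 0.52 (adjusted p = 0.0013, edgeR's test, range over all alternatives 8.4e-05 to 0.45). The call was lost when scaling used library size alone (0.41). Hspa1b at 1.03 ± 0.34, Hsph1 at 0.51 ± 0.16 and Dnajb1 at 0.35 ± 0.11 were not called (adjusted p = 0.14, 0.10 and 0.11, edgeR's test). DESeq2 called Hspa1b as well (adjusted p = 0.024, range over all alternatives 0.024 to 0.54), and without KO_MR_7631, which belongs to neither group but enters the shared estimate of spread, edgeR's test called Hspa1b (adjusted p = 0.040) and Hsph1 (adjusted p = 0.041, range over all alternatives 0.041 to 0.59). Hsp90ab1, Hsp90aa1, Hspd1, Hspe1 and Hspb1 had values from -0.22 to 0.14 and Hspa1a had 0.54, none of them called. Without the library labelled WT_CON_7607 these values ran from -0.33 to 0.13, with Hspa1a at 1.06, Hspa1b at 1.29, Hsph1 at 0.55 and Dnajb1 at 0.41. The WT Con mice serve as the controls both here and for MR in WT, so the values of Hspa8 in the 2 comparisons share those mice.

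On MR, 0 of the 10 genes differed between NRF2 KO and WT by edgeR, DESeq2 or limma, where 0.555% of all genes were called higher, 1.38% lower and 1.93% either way by edgeR. At an unadjusted p under 0.05 there was 1 member, Hspd1, with a log2 fold change of -0.17 ± 0.07 (adjusted p = 0.25, edgeR's test), where 13.9% of all genes lay under that p. It was at 209 ± 8.81 CPM (SD, n = 5) in WT MR mice and at 186 ± 8.81 CPM (n = 6) in NRF2 KO MR mice. Hspa8 was at 323 ± 29.2 CPM in WT MR and at 337 ± 35.4 CPM in NRF2 KO MR, with a value on the log2 scale of 0.06 ± 0.09 (adjusted p = 0.84, edgeR's test). All 10 genes overlapped between the genotypes on this diet, where 1.69% of all genes had every NRF2 KO mouse higher and 2.91% every one lower.

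Some circadian clock genes also differed between the groups. Of 17 clock genes, 6 were called higher and 2 lower with MR in WT, 1 higher and 1 lower with MR in NRF2 KO, and 7 higher and 3 lower with NRF2 KO on Con. Over all genes, 13.8%, 12.6% and 2.07% were called either way in these comparisons. The calls with MR in NRF2 KO are thus near the share over all genes. Per1, a clock repressor that glucocorticoids also induce, ran from 1.68 to 7.65 CPM in WT Con, from 6.66 to 16.5 CPM in WT MR and from 11.4 to 18.6 CPM in NRF2 KO Con, with a log2 fold change of 1.54 ± 0.32 with MR in WT (adjusted p = 0.0032) and 1.83 ± 0.30 with NRF2 KO on Con (adjusted p = 0.0024, edgeR's test). Per3 rose by 1.02 ± 0.19 and Tef by 0.63 ± 0.15 on the log2 scale with MR in WT (adjusted p = 0.0012 and 0.0067, edgeR's test). A clock score, built from 8 genes high and 4 genes low in the same phase, ran from -4.53 to -1.29 in WT Con, from -1.58 to 0.46 in WT MR, from 0.38 to 1.35 in NRF2 KO Con and from 0.80 to 1.78 in NRF2 KO MR. The WT Con scores lay below those of all NRF2 KO mice and overlapped those of WT MR through WT_CON_7608 and WT_MR_7613. With the score as a covariate, chosen after seeing the data, 4 members were called higher with MR in WT, where 687 of the 13336 genes were called in either direction, with values of 0.62 for Hspa8, 0.92 for Hsph1, 0.56 for Hspd1 and 0.56 for Hspe1. The 3 genes no longer called were Hsp90ab1 at 0.40, Dnajb1 at 0.52 and Hspa1b at 1.32 (adjusted p = 0.058, 0.095 and 0.19, edgeR's test). In the same fit 0 of all genes were called with NRF2 KO on Con, where Hspa8 was at 0.43 (adjusted p = 0.45, edgeR's test). The scores of WT Con and NRF2 KO Con do not overlap, so this fit cannot tell the score apart from genotype on Con. No conclusion is drawn from the lost calls. The part of the clock in these results was not tested.

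**Figure D3:**
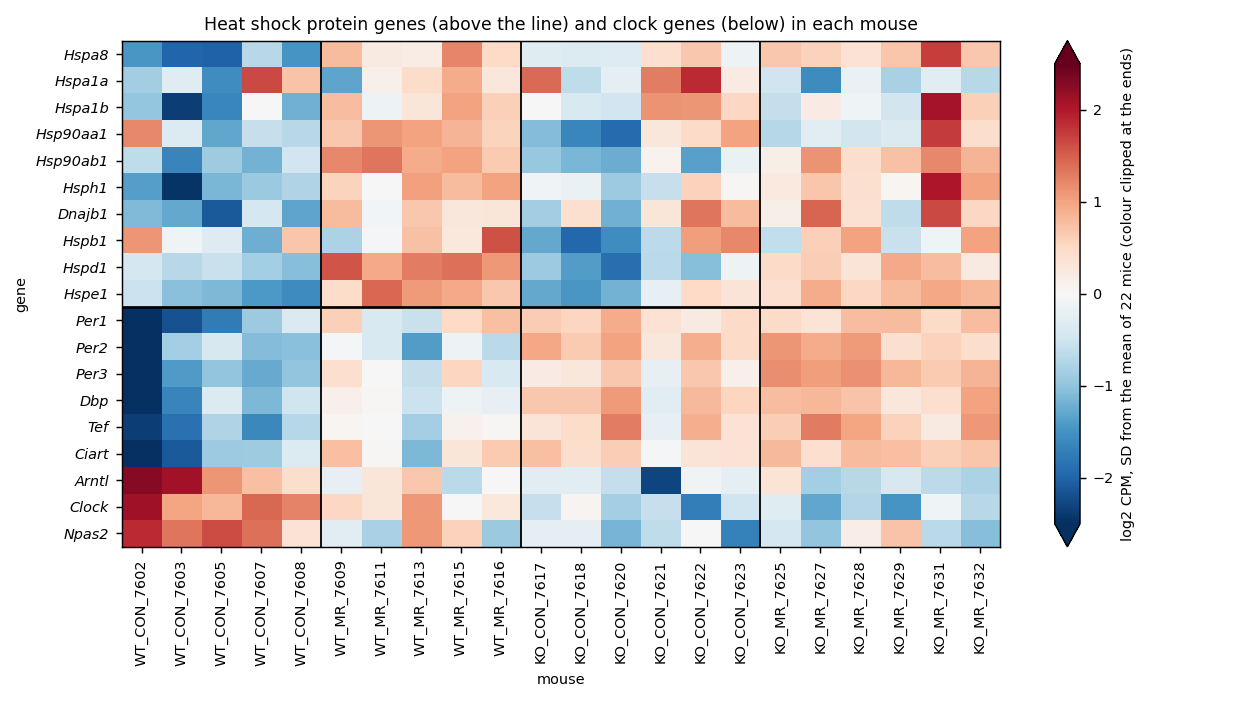
Log2 CPM of the 10 heat shock protein genes (above the horizontal line) and of 9 clock genes (below it) in each of the 22 mice (columns, groups divided by vertical lines), as SDs from the gene's mean over the 22 mice, with colours clipped at the ends of the scale. The 5 WT Con mice are low for Hspa8 and Hsph1 and for Per1, Per3 and Tef, and KO_MR_7631 is the highest of all mice for Hspa8, Hspa1b and Hsph1.

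Markers of other liver cells were also compared, since some of them moved with diet. Over all genes, 6.91% were called lower and 6.91% higher with MR in WT, and 6.34% lower and 6.23% higher in NRF2 KO. A single call in a list this short was not read as a result about its cell type. In WT with MR, 3 of 7 Kupffer cell and macrophage markers, 4 of 6 stellate cell markers, 3 of 4 bile duct cell markers, 1 of 3 lymphocyte markers and 1 of 3 neutrophil markers were lower, 1 of 6 hepatocyte markers was lower, and 0 were higher by edgeR. The genes with the smallest adjusted p were Cd68, Csf1r and Cd5l for macrophages, Col3a1, Lrat and Col1a1 for stellate cells, Sox9, Epcam and Krt7 for bile duct cells, Ptprc for lymphocytes, Retnlg for neutrophils and Apoa1 for hepatocytes, and their log2 fold changes ran from -1.59 for Epcam to -0.42 for Cd5l. The summed level of the Kupffer cell and macrophage markers ran from 269 to 375 CPM in WT Con and from 217 to 247 CPM in WT MR. That of the stellate cell markers ran from 386 to 648 CPM and from 339 to 425 CPM, and that of the bile duct cell markers from 28.2 to 37.6 CPM and from 8.74 to 17.4 CPM. In NRF2 KO with MR, 3 stellate cell markers and 1 bile duct cell marker were lower and 1 of 6 endothelial cell markers, Kdr, was higher, and Apoa1 was again lower. The T cell genes Cd3e and Cd8a and the bile duct gene Epcam had at least 1 mouse at 0 counts, and Clec4f, Cd79a and Ly6g were not analysed here. Of the 4 red blood cell markers 0 were called by edgeR in either genotype. The part of these cells in the heat shock protein values was not tested.

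Within groups, the heat shock protein genes varied together to different degrees. As deviations from the group means over the 22 mice, Hspa8 and Hspa1b had a Pearson r of 0.879 (Spearman rho 0.796), Hspa1b and Hsph1 of 0.765 (0.670), and Hspa1b and Dnajb1 of 0.684 (0.631). Hsp90aa1 and Hspe1 had an r of 0.793 (0.823), whereas Hspa8 and Hspb1 had 0.008 (0.072). Without the 2 mice farthest from the median of the members' mean deviation, KO_CON_7620 and KO_MR_7631, these values were 0.836, 0.643, 0.596, 0.827 and 0.012. The points share their libraries and depth, and the values are descriptions. Of the 9 other genes, Hspa8 had the highest r and rho with Hspa1b. Hsp90aa1 had an r of 0.647 with it and a rho of 0.689, which was above the rho of Hsph1.

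Among 6881 genes with a mean of at least 10 CPM, the 5 that were most like the mean of the members by this measure were Itgb1bp1 (r = 0.825), Ss18 (0.806), Med21 (0.799), Gtf2e2 (0.794) and Trp53inp2 (0.778). In the same order, Spearman rho was 0.844, 0.709, 0.684, 0.679 and 0.758. Without KO_CON_7620 and KO_MR_7631, r was 0.801, 0.759, 0.712, 0.704 and 0.727. These genes were picked as the highest of the 6881, so the values are descriptions. Of other chaperone genes, chosen after their values were seen, Ahsa1, the activator of the HSP90 ATPase, had an r of 0.659 with that mean, and Dnaja1, a J-domain partner of HSC70, of 0.637. Hspa9, Chordc1, Fkbp4, Bag3 and Hspa4l had 0.475 to 0.548, whereas Stip1 had -0.061 and Hspa5 had -0.072. Cirbp and Rbm3, which encode cold-inducible RNA-binding proteins, had -0.612 and -0.317, and Hsf1 itself had 0.084.

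The regulators of the response were examined next. Hsf1 was at 7.004 ± 1.07 CPM (SD, n = 5) in WT Con and 8.23 ± 1.19 CPM (n = 5) in WT MR, and its log2 fold change with MR in WT was 0.25 ± 0.17 and in NRF2 KO was 0.34 ± 0.15 (adjusted p = 0.35 and 0.13, edgeR's test). Hsf2, a related factor that can form mixed trimers with HSF1, rose by 0.27 ± 0.09 in WT and by 0.27 ± 0.08 in NRF2 KO mice (adjusted p = 0.041 and 0.027, edgeR's test). Hsbp1, which encodes a small protein that binds HSF1 trimers, was at -0.18 ± 0.07 in WT (adjusted p = 0.066) and fell by 0.26 on the log2 scale in NRF2 KO mice (adjusted p = 0.0062, edgeR's test). Bag3, an HSP70 co-chaperone of autophagy that is itself induced by HSF1, was at 0.10 ± 0.13 and -0.10 ± 0.11 (adjusted p = 0.64 and 0.63, edgeR's test). In all, of 6 genes of HSF1 and its regulators 1 was called higher in WT and 1 higher and 1 lower in NRF2 KO. Over all genes, 13.8% were called either way in WT and 12.6% in NRF2 KO. Averaged over genotypes 2 were called higher and 1 lower, where 27.4% of all genes were called either way. The cold-inducible genes Cirbp and Rbm3 were called in neither genotype, with values in WT of -0.15 ± 0.17 and -0.16 ± 0.24 (adjusted p = 0.61 and 0.71, edgeR's test).

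Other cytosolic chaperones and their helpers were read from lists of the same pathway. Beside the counts of this and the later lists stand the shares over all genes. With MR in WT 6.91% were called higher and 6.91% lower, and in NRF2 KO 6.23% and 6.34%. Of 6 other HSP70 and HSP110 relatives that were tested, 0 were called in either genotype by edgeR. Of 18 J-domain co-chaperones, 3 were called higher and 1 lower with MR in WT and 1 higher in NRF2 KO, with Dnajc12, a partner of aromatic amino acid hydroxylases, at 0.78 ± 0.18 and 0.58 ± 0.17 (adjusted p = 0.0069 and 0.025, edgeR's test). Dnajc21 and Dnaja2 rose in WT by 0.30 ± 0.08 and 0.25 ± 0.07 (adjusted p = 0.014 and 0.017, edgeR's test). Of 8 HSP70 exchange and adaptor co-chaperones, 1 was called in each genotype, Bag2, an inhibitor of the ubiquitin ligase CHIP, at 0.87 ± 0.22 and 0.85 ± 0.21 (adjusted p = 0.011 and 0.0095, edgeR's test). The median log2 fold change in WT was 0.07 over the J-domain list and 0.06 over the exchange and adaptor list, beside 0.44 for the 10 heat shock protein genes and -0.01 over all genes.

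Of 17 HSP90 co-chaperones, 3 were called higher with MR in WT and 1 in NRF2 KO, and 0 lower in either by edgeR. Over all genes 6.91% were called higher in WT and 6.23% in NRF2 KO, and the 1 call in NRF2 KO is near that share. Fkbp5, a peptidyl-prolyl isomerase of steroid receptor complexes that glucocorticoids induce, rose in WT by 0.66 ± 0.21, and Cacybp by 0.22 ± 0.07 (adjusted p = 0.036 and 0.043, edgeR's test). Sugt1, a client adaptor, rose in NRF2 KO by 0.22 ± 0.06 (adjusted p = 0.014, edgeR's test). Of 15 genes of the TRiC/CCT chaperonin, which folds actin and tubulin, and of prefoldin, 4 were called higher in WT and 1 in NRF2 KO. Cct4 rose by 0.57 ± 0.09 in WT and by 0.29 ± 0.09 in NRF2 KO mice (adjusted p = 0.00033 and 0.025), and Cct2 by 0.35 ± 0.08 and Pfdn6 by 0.26 ± 0.08 in WT (adjusted p = 0.0040 and 0.030, edgeR's test). Of the 4 other small heat shock protein genes tested, Cryab, a lens and muscle chaperone, fell by 0.42 on the log2 scale in NRF2 KO mice (adjusted p = 0.031), and 0 were called in WT by edgeR.

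The mitochondrial partners of Hspd1 and Hspe1 showed a mixed pattern. Hspa9, the mitochondrial HSP70 that pulls in imported proteins, rose from 347, 354, 375, 380.4 and 391 CPM in WT Con to 547, 582, 607, 642 and 660.0 CPM in WT MR without overlap, a log2 fold change of 0.72 ± 0.08 (adjusted p = 4.6e-06, edgeR's test). In NRF2 KO it rose by 0.45 ± 0.07 (adjusted p = 0.00033, edgeR's test). The ratio of Hspa9 to Hspd1 was 2.48 ± 0.170 (SD, n = 5) in WT Con and 2.90 ± 0.125 (n = 5) in WT MR, which did not pass the correction (two-sided exact permutation test, p = 0.0079, the smallest that 5 against 5 mice can give, adjusted p = 0.10). The protease genes Afg3l2 and Lonp1 rose in WT by 0.48 ± 0.10 and 0.27 ± 0.06 (adjusted p = 0.0021 and 0.0050, edgeR's test), and Afg3l2 in NRF2 KO by 0.36 ± 0.09 (adjusted p = 0.0099, edgeR's test). In all, of 15 mitochondrial chaperones and proteases 4 were called higher and 1 lower in WT and 4 higher in NRF2 KO, with a median of 0.12 and 0.11.

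The endoplasmic reticulum counterparts went the other way in their median, -0.08 in WT and -0.31 in NRF2 KO. Hspa5 (BiP), the HSP70 of the endoplasmic reticulum, was at -0.08 ± 0.16 and -0.09 ± 0.14 (adjusted p = 0.79 and 0.72, edgeR's test). Of 11 genes, 1 was called higher and 1 lower in WT, and 1 higher and 3 lower in NRF2 KO. Pdia6, a disulfide isomerase, fell by 0.42 in WT and by 0.79 in NRF2 KO on the log2 scale (adjusted p = 0.025 and 0.00011, edgeR's test), and Calr, a lectin chaperone, fell by 0.52 in NRF2 KO mice (adjusted p = 0.013, edgeR's test). Dnajb9, a J-domain partner of BiP, rose by 0.83 ± 0.23 in WT and by 0.70 ± 0.20 in NRF2 KO mice (adjusted p = 0.020 and 0.029, edgeR's test).

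**Figure D4:**
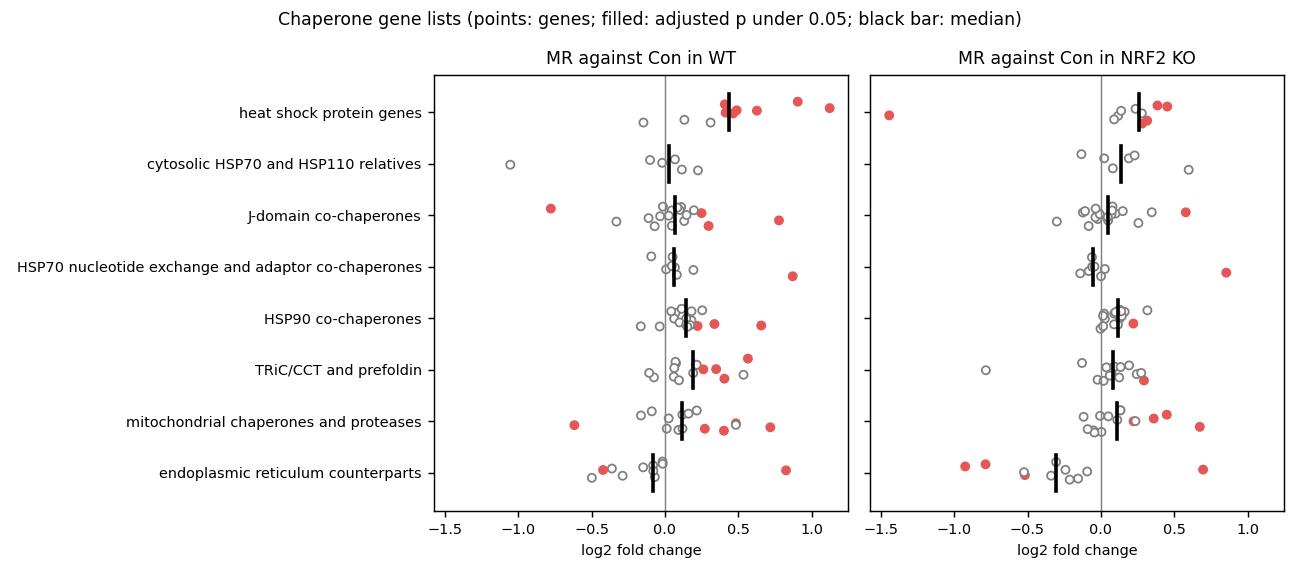
Log2 fold changes with MR (x axis) of single genes (points, filled at an adjusted p under 0.05 in edgeR's test) in 8 chaperone gene lists (y axis) in WT (left) and NRF2 KO (right), with the median of each list as a black bar. The median of the 10 heat shock protein genes is 0.44 in WT and 0.26 in NRF2 KO, and that of the endoplasmic reticulum list is below 0 in both.

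Other stress programs were read in the same fits for comparison of size. Of 14 ATF4 target genes, 11 were called higher with MR in WT and 10 in NRF2 KO, with medians of 1.92 and 2.14, and Asns, Psat1 and Aldh1l2, enzymes of asparagine, serine and folate metabolism, were at 4.09, 3.61 and 4.17 in WT. Of 12 NRF2 target genes, 9 and 7 were called higher with MR, with medians of 0.88 and 0.70, and with NRF2 KO 8 were lower on Con and 10 on MR, and Ephx1, Cbr1 and Gsta2, enzymes of detoxification, were at 1.42, 1.81 and 2.89 with MR in WT. Of 11 immediate early genes, 3 were lower with MR in WT, and 3 were higher and 1 lower in NRF2 KO, where Egr1, Junb and Ier3 were at 2.61, 0.55 and 0.81. The median of the 10 heat shock protein genes was below those of both the ATF4 and the NRF2 lists in each genotype.

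How surely the 3′ reads can be assigned differed between the members. Of the 50-base words in the last 500 bases of the transcript, 81.8% of those of Hspa8 also occurred in other annotated genes, 11 in number. For Hspb1 54.5% were shared with Hsp25-ps1, for Hspe1 53.2% with 6 genes, and for Hsp90ab1 7.76% with Gm6368. For Hspa1a, Hspa1b, Hsp90aa1, Hsph1, Dnajb1 and Hspd1 0 such words were shared. The study's methods give reads of 75 bases. For words of that length the shares were 80.8% for Hspa8, 51.9% for Hspb1, 39.0% for Hspe1 with 2 genes, and 2.35% for Hsp90ab1. How the counting treated reads with several matches was not given in the sources used here, so the levels of Hspa8, Hspb1 and Hspe1 are the less certain ones.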

How the data were processed

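Liver RNA of 24 mice was sequenced by the authors as single-end QuantSeq 3′ libraries, and the deposited table holds each gene's raw read count from the kit maker's pipeline, unpooled, on a build named GRCm38 or mm10 in the submitters' processing notes. The aligner and the treatment of reads with several matches are not given in the sources used here. For the deposited signal values, the authors scaled each mouse by its DESeq2 size factor (DESeq2 1.18.1, R 3.4.3). Every column was its counts over a single factor, to within a relative deviation of 5.3e-15.

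From the counts, edgeR 4.0.16 in R 4.3.3 fitted a single model with 4 group means to 22 mice, each with 1 library, after TMM scaling and the filter by expression, with the robust quasi-likelihood F-test. A called gene had a Benjamini-Hochberg adjusted p below 0.05. The prior count for log2 CPM was 2. No replicate pair differed by as little as sampling noise (chi-square per degree of freedom 9.46 to 110). Alternatives used DESeq2 1.42.0, limma 3.58.1 on log2 of the signal plus 1, other scalings and filters, all 24 mice, only the groups compared, each mouse left out, a clock score covariate, and Hspa1a and Hspa1b summed. The last 2 were chosen after seeing the data. Scripts were tested on simulated data. Ratios were compared on the log2 scale by two-sided exact permutation tests (scipy 1.17.1). Symbols come from the deposited table and positions from GENCODE M21.

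The genes, lists and tests were chosen with earlier results of these data known. Named genes are the 10 members, up to 3 called genes per list with the smallest adjusted p with MR, Hsf1, Bag3, Hspa9, Hspa5, Cirbp and Rbm3, and the 5 genes most like the members. Further chaperone genes were named beside these 5 after their values were seen.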

Additional observations from a re-analysis of the deposited data

Results flagged for a closer look

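Each of the 10 genes was examined in each of the 4 groups for a mouse far from the others, and 2 of these 40 gene and group combinations had one, where chance gives about 1 in 20. Both were the mouse KO_MR_7631, with Hspa8 at 407.3 CPM against 329.8 CPM in the nearest mouse of its group, and Hspa1b at 25.78 CPM against 12.68 CPM. This mouse also had the highest Hsph1 level of the 22 mice, 45.4 CPM.

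Levels of the 10 genes in the 2 mice left out of the comparisons were set beside the highest of the 5 WT Con mice, and 7 values lay above it. The left-out mice were scaled by TMM over all 24 mice and the others over the 22 mice. A gap as small as that of Dnajb1 in WT_CON_7604 therefore cannot be read as a difference. In WT_MR_7612, Hspa8 was at 388.8 CPM (highest WT Con 247.4 CPM), Hsp90ab1 at 1449 CPM (1292 CPM), Hspd1 at 190.5 CPM (156.2 CPM), Hspe1 at 199.2 CPM (162.3 CPM) and Hsph1 at 20.95 CPM (18.61 CPM). In WT_CON_7604, Hspa8 was at 257.1 CPM and Dnajb1 at 19.38 CPM (19.36 CPM). The Hspa8 level of WT_MR_7612 lay above all 5 WT MR mice that were compared, whereas its levels of Hspa1b (5.88 CPM), Dnajb1 (16.3 CPM), Hsp90aa1 (134 CPM), Hspb1 (4.12 CPM), Hsp90ab1, Hsph1 and Hspd1 lay below all of them.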

How the results depend on the processing

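No paired analysis was possible because each mouse has a number of its own. Leaving out each mouse in turn, MR in WT kept Hspa8, Hsp90ab1, Hsph1, Hspd1 and Hspe1 called in 22 of 22 fits, and MR in NRF2 KO kept Hsp90ab1, Hspd1 and Hspe1. These fits gave for MR in WT -0.43 to 0.38 for Hspa1a and -0.03 to 0.25 for Hspb1, and for MR in NRF2 KO -0.30 to 0.22 for Hspa1b and 0 to 1 members lower. For MR averaged, 0 to 1 members were lower (1 without WT_CON_7605). For NRF2 KO on Con they gave 181 genes (without WT_CON_7603) to 314, 1 to 3 members higher (3 without KO_MR_7631) and -0.11 to 0.09 for Hsp90aa1, and for NRF2 KO on MR -0.09 to 0.12 for Hsph1 and -0.19 to 0.09 for Hspb1. The interaction ran from 3 genes to 12.

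With the clock score, 687 genes and 4 members higher were called for MR in WT, 2124 genes for MR averaged, 0 genes and 0 members for NRF2 KO on Con, 78 genes for NRF2 KO on MR and 0 for the interaction. The sign changed for Hspa1a (-0.01), Hsp90aa1 (0.54) and Hspd1 (0.04) with NRF2 KO on Con and for Hsp90aa1 (0.04), Hspb1 (0.03) and Hspe1 (0.03) with NRF2 KO on MR. With limma, MR gave 0.18 for Hspa1a in WT and -0.01 for Hspa1b in NRF2 KO. With all 24 mice, Hspb1 was at -0.10 with MR in WT and at 0.09 with NRF2 KO on MR. Members lower with MR in NRF2 KO numbered 0 by library size only, without a filter, with at least 10 counts in every mouse (which leaves Hspa1a untested), with limma, with all 24 mice and with only the groups compared. Library size only gave 2785 genes for MR in NRF2 KO and 0 members higher with NRF2 KO on Con. DESeq2 gave 451 genes and 2 members for NRF2 KO on Con, 496 genes for NRF2 KO on MR and 35 for the interaction. Only the groups compared gave 99 and 600 genes for NRF2 KO on Con and on MR. Apart from the untested gene, the cause of these changes was not tested. The study states that the mice were housed singly and that WT mice were floxed littermates of the NRF2 KO mice. How litters and times of death were spread over the groups is not stated. Counting error limits Hspa1a most, at 2 to 28 counts per mouse.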
